A study of Homo sapiens with 6 samples.

Results

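The cytosolic ribosomal protein genes were examined in H358 cells, an epithelial line from a human lung cancer, with lentiviral hairpins against the splicing regulators ESRP1 and ESRP2. Genes were taken by symbol: RPL or RPS followed by a number, with an optional A or X, together with RPSA, RPLP0, RPLP1 and RPLP2. Of the 54607 rows of the table, 82 carried such a symbol, and 77 genes remained once the highest row of each symbol was kept. They comprised 46 genes of the large (60S) subunit and 31 of the small (40S) subunit, and all 77 passed the filter on low values (at least 1 FPKM on average). The ESRP knockdown group (KD) had hairpins against both ESRP genes, and the control group (CTRL) had a control knockdown. Each group comprised 3 libraries, described as biological triplicates, so p-values measure the spread between these libraries. Both groups were H358 cells read as paired ends from a stranded mRNA kit. The constructs differ between the groups, so their other effects cannot be told apart from those of reduced ESRP.

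The ribosome is built from a small subunit, which reads the mRNA, and a large subunit, which joins amino acids. Each subunit is made of ribosomal RNA and of proteins that are mostly present once per ribosome. In mammals nearly all of the protein genes share a feature of their mRNAs. These begin with a cytosine followed by a run of pyrimidines, the 5′ terminal oligopyrimidine (TOP) motif, through which mTORC1 and the RNA-binding protein LARP1 control their translation and stability. Transcripts of ribosomal proteins are among the most abundant in growing cells, and many of them have processed pseudogenes elsewhere in the genome.

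The starts of the transcripts were read from RefSeq promoter sequences (GRCh38.p14), where 62 of the 77 genes had an entry. A start was counted as carrying the tract if its first base was C and the run of C and T from it was at least 5 bases long. Where a gene had several starts, the one with the longest run was taken. The tract was present in 46 of the 62, which is 74.2%, and in 1404 of all 27305 genes of the same set, or 5.14%. Its length among the 46 ran from 5 to 19 bases with a median of 8. The windows below cover 10 bases before the start and 20 from it, 5′ to 3′ on the transcribed strand, with the tract in capitals. The first 7 belong to genes that were higher in the knockdown, and RPL37A and RPS19 have a tract but hardly differed. RPS26, RPS4X and RPL3 were higher with no tract of at least 5 bases at the listed start, although RPL3 begins there with the shorter run CTCT.
RPL28 (chr19:55385922-55385951, plus strand): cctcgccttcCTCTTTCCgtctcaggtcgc
RPL14 (chr3:40457329-40457358, plus strand): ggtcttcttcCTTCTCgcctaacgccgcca
RPLP0 (chr12:120201092-120201121, minus strand): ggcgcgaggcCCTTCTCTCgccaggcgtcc
RPL34 (chr4:108620566-108620595, plus strand): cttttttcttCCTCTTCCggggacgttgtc
RPS9 (chr19:54200848-54200877, plus strand): gcttccgcgcCTCTTTCTCagtgaccgggt
RPS25 (chr11:119018324-119018353, minus strand): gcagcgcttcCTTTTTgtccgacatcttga
RPS12 (chr6:132814559-132814588, plus strand): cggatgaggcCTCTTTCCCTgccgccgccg
RPL37A (chr2:216498834-216498863, plus strand): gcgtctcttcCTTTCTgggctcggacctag
RPS19 (chr19:41860245-41860274, plus strand): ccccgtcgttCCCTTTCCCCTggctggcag
RPS26 (chr12:56041908-56041937, plus strand): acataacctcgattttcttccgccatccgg
RPS4X (chrX:72277229-72277258, minus strand): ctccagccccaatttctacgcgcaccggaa
RPL3 (chr22:39319604-39319633, minus strand): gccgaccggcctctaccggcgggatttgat

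The values were FPKM, a count of fragments divided by transcript length and by library size, so they compare genes per length and are relative to the other RNAs of the library. In bulk RNA, fewer cells with a transcript and less of it per cell cannot be told apart. Total depth is unknown. Ratios of low values put the relative depth of knockdown libraries 1, 2 and 3 at 0.993, 1.42 and 1.24 times that of control library 1, and that of control libraries 2 and 3 at 1.66 and 1.65 times. The part of depth in the differences was not tested. The targeted genes were lower in the knockdown. ESRP1 averaged 11.9 ± 0.298 FPKM in knockdown cells and 72.9 ± 0.565 FPKM in control cells, and ESRP2 at 8.40 ± 0.316 FPKM in knockdown cells and 15.5 ± 0.363 FPKM in control cells (SD, n = 3 each, as in every mean that follows). The 8 epithelial markers examined lay between 58.0 and 1030 FPKM, and the markers of blood and endothelial cells were at most 0.958 FPKM in any library. All 8 epithelial markers had lower means in the knockdown. CLDN4 averaged 111 ± 3.92 FPKM in knockdown cells and 148 ± 1.57 FPKM in control cells, CDH1 stood at 76.2% of control and EPCAM at 98.2%. The mesenchymal marker VIM averaged 132 ± 9.24 FPKM in knockdown cells and 87.9 ± 3.61 FPKM in control cells, CDH2 averaged 12.9 ± 1.84 FPKM in knockdown cells and 9.16 ± 1.32 FPKM in control cells, and ZEB1 was below 1 FPKM in every library. The part of this shift in the differences of ribosomal protein genes was not tested.

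The ribosomal protein genes were among the most abundant transcripts of these cells. Their median level over the 6 libraries was 948.8 FPKM, with a middle range of 616.1 to 1562 FPKM. The median was 1090 FPKM for the large subunit and 900.7 FPKM for the small subunit, and the levels within each subunit overlapped widely. The highest levels belonged to RPS29, a zinc-binding protein of the small subunit head, at 2963 FPKM, and to RPS3, which lines the entry to the mRNA channel. In the large subunit RPL37A, another zinc-binding protein, was highest, followed by RPL30 and RPL8. The proteins are needed in near equal numbers, but the RNA levels were not equal. Only 4 genes stood under 100 FPKM. These included RPL21 at 14.31, RPS26 at 12.6 and RPS28 at 2.88 FPKM, averaged over the 6 libraries, whereas the next lowest gene, RPS15A, had 186.4 to 210.1 FPKM. Near-identical copies of ribosomal protein genes can share reads, so these low levels are uncertain. The part that sharing plays in them was not tested.

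**Figure D1:**
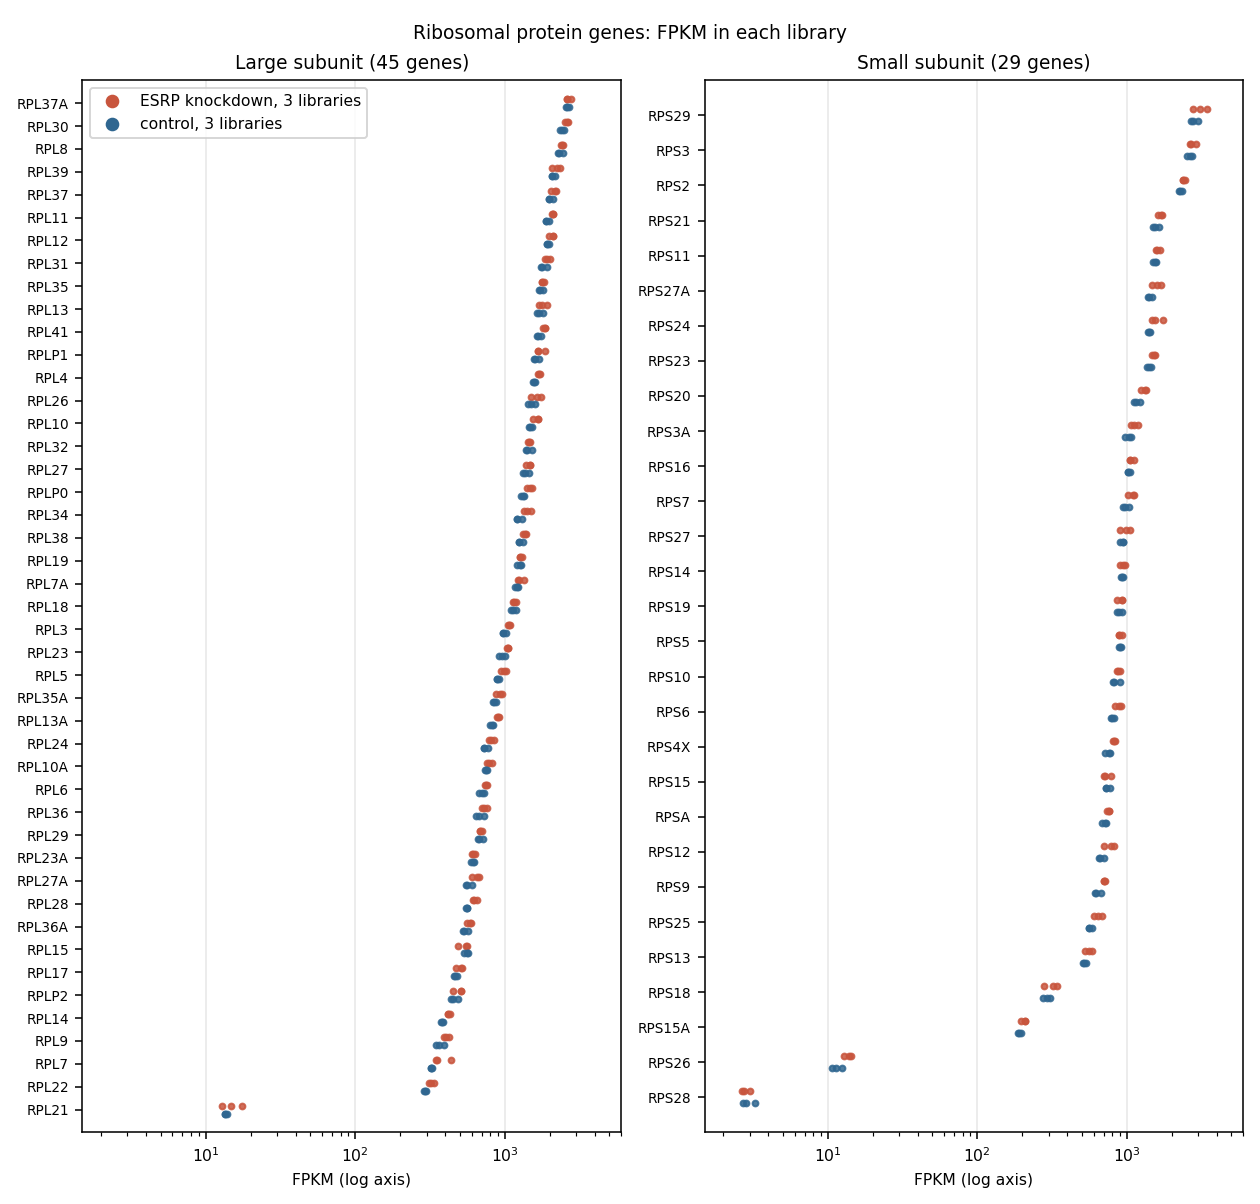
FPKM of 74 of the 77 genes (rows, sorted by mean level) on a log axis, for 45 large subunit genes on the left and 29 small subunit genes on the right. Each point is 1 library, with ESRP knockdown in red above control in blue. All but 3 of these have means between 191.1 and 3092 FPKM in either group, and RPL21, RPS26 and RPS28 stand apart at the low end.

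Ribosomal protein genes were slightly higher in the knockdown as a class. Of the 77, 22 rose and none fell by limma at an adjusted p below 0.05 (over 13611 genes). Among all genes tested 6.54% rose and 10.2% fell, 16.7% in either direction. Without adjustment 41 of the 77 had a limma p below 0.05, as did 4472 of all 13611 genes tested. A positive log2 fold change was found for 73 of 77, against 49.3% of all genes. The median log2 fold change was 0.098, with a spread between libraries of 0.044 (pooled SD), against -0.002 for all genes tested. The median knockdown level was 107.2% of the control level. The 3 libraries of each group did not overlap for 35 genes that were higher in the knockdown and for 1 that was lower, while among all genes 17.3% were higher and 20.9% lower without overlap. The number of calls depended on single libraries. It was 3, 2 and 28 without knockdown library 1, 2 and 3, and 2, 1 and 13 without control library 1, 2 and 3. Of all genes tested 3.56%, 3.36% and 6.24% were called higher without knockdown library 1, 2 and 3. Without control library 1, 2 and 3 the shares were 3.61%, 2.96% and 3.13%. Only RPL28, RPL14 and RPL22 were called without knockdown library 1, only RPL28 and RPL14 without knockdown library 2, only these higher without control library 1, and RPL28 alone without control library 2. Without the filter on low values 2 genes were called (1.85% of all genes tested rose), and without the intensity trend in limma 3 (5.01%). RPL28 held in all 6 fits with a library left out and RPL14 in 5, and the other 20 called genes held in at most 2, with limma adjusted p up to 0.149.

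The pattern over the libraries was shared by most of the class. Relative to the control mean on the log2 scale, the median gene stood at 0.124, 0.134 and 0.047 in knockdown libraries 1, 2 and 3, and at -0.016, -0.030 and 0.044 in control libraries 1, 2 and 3. Knockdown libraries 1 and 2 were thus clearly high, and knockdown library 3 and control library 3 were nearly alike. Knockdown library 3 exceeded control library 3 in 40 of 77 genes, while knockdown library 1 exceeded control library 1 in 75. Of all genes tested 45.8% and 50.1% were higher in these comparisons. Knockdown library 3 was the lowest of its group in 61 genes, and control library 3 the highest of its group in 67. The class took 14.99%, 14.94% and 14.57% of the FPKM sum in knockdown libraries 1, 2 and 3, and 13.92%, 13.79% and 14.36% in control libraries 1, 2 and 3. These shares do not overlap, although the gap between knockdown library 3 and control library 3 is narrow. The median over all tested genes differed from 0 by at most 0.014 in any library. Over the 6 libraries each gene's log2 level had a median Pearson r of 0.90 with the mean of the other 76. The r was over 0.8 for 53 genes and negative for 3, among them RPL15 and RPS28. Within groups, after subtraction of the group means, the median r was 0.84. These correlations rest on 6 libraries and on values that share each library's scaling, and they carry no test.

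**Figure D2:**
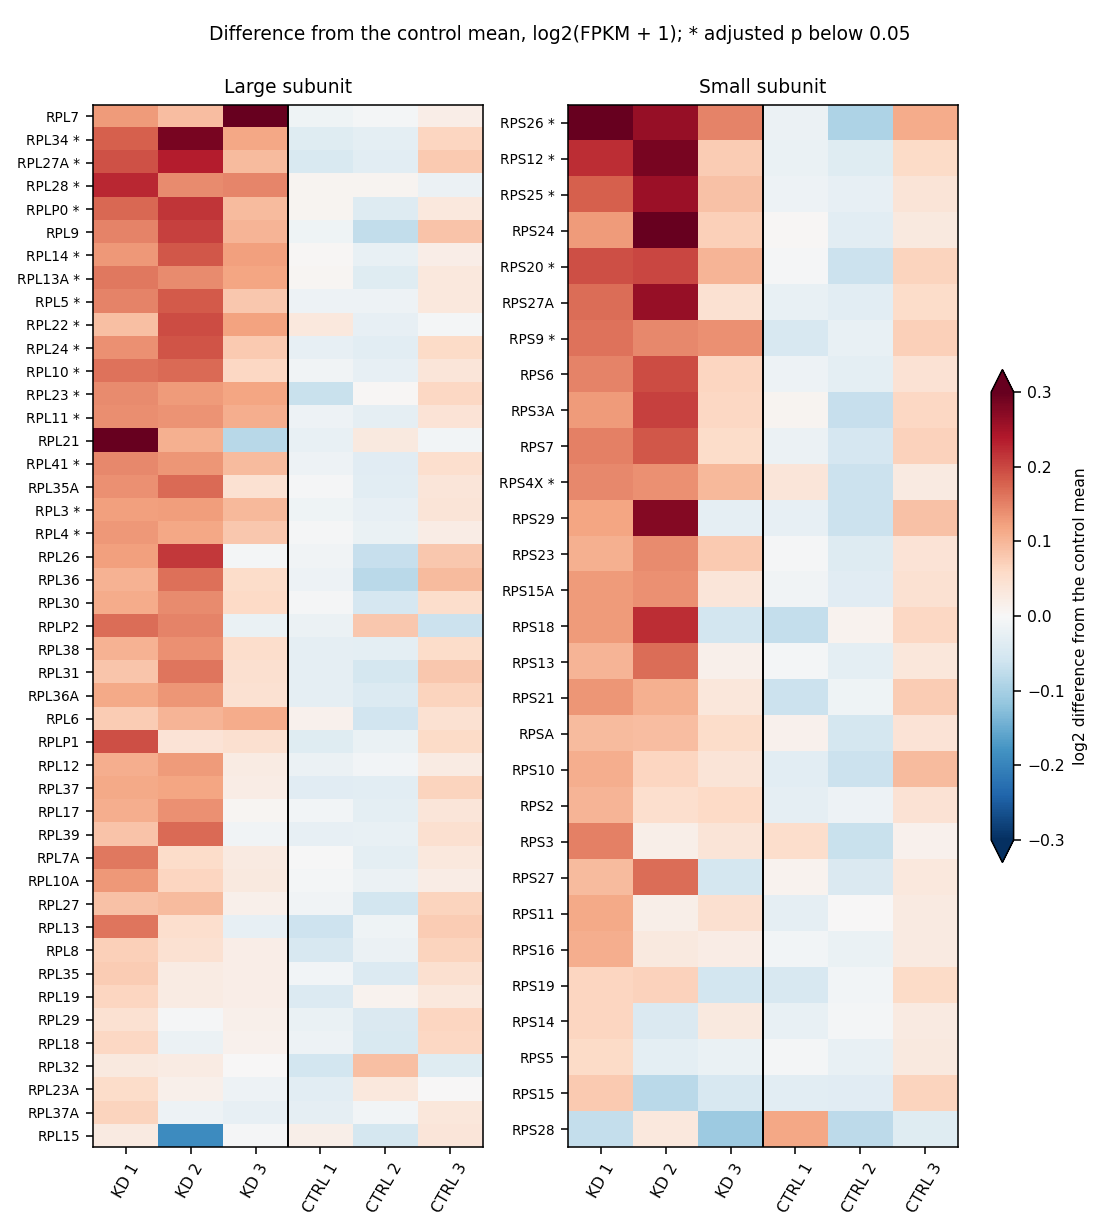
Difference of log2(FPKM + 1) from the mean of the 3 control libraries, for 74 of the genes (rows, sorted by fold change) and library (columns, knockdown left of control), with an asterisk at genes with a limma adjusted p below 0.05. Colours saturate at 0.3 either way. Knockdown libraries 1 and 2 are red for most genes, and knockdown library 3 and control library 3 are both pale red.

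RPL28, a large subunit protein found only in eukaryotes, had the smallest adjusted p of the class. It had 654.4, 617.3 and 618.8 FPKM in knockdown libraries 1, 2 and 3, against 562.0, 562.4 and 552.6 FPKM in control libraries 1, 2 and 3. Every knockdown library lay above every control library, and the gap was wider than the spread within either group. RPL28 rose by 0.172 on the log2 scale (SE 0.030, limma adjusted p = 0.00903, and up to 0.0414 with a library left out). RPL14, a surface protein of the large subunit, had 417.2, 433.8 and 414.7 FPKM in the knockdown libraries, against 381.9, 374.8 and 385.9 FPKM in control cells. Its groups were also apart (log2 fold change 0.147, SE 0.027, limma adjusted p = 0.0118). Among the fits with a library left out, that call was lost only without control library 2 (limma adjusted p = 0.0510). A pseudogene row of RPL14 held 147.6 FPKM, so the level of the gene is uncertain. RPL13A, which also serves in a complex that silences inflammatory mRNAs, averaged 900.8 ± 12.8 FPKM in knockdown cells and 817.7 ± 19.4 FPKM in control cells (log2 fold change 0.140, limma adjusted p = 0.0146, up to 0.0558 with a library left out). In hg19 as deposited, RPL28 lies on chromosome 19 at 55896713 to 55914612, RPL14 on chromosome 3 at 40498783 to 40506549, and RPL13A on chromosome 19 at 49990811 to 49995565.

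The stalk of the large subunit, made of RPLP0, RPLP1 and RPLP2, recruits the factors that drive translation. RPLP0, the base of the stalk, had 1478, 1521 and 1400 FPKM in knockdown libraries 1, 2 and 3, against 1318, 1276 and 1339 FPKM in the control libraries. It rose by 0.161 on the log2 scale (SE 0.037, limma adjusted p = 0.0253), a call that held in 1 of 6 fits with a library left out. The acidic proteins that bind to it were not called. RPLP1 averaged 1735 ± 106 FPKM in knockdown cells and 1624 ± 56.4 FPKM in control cells (limma adjusted p = 0.216), and RPLP2 490.5 ± 34.1 FPKM in knockdown cells and 457.8 ± 23.8 FPKM in control cells (limma adjusted p = 0.280). Their groups overlapped. Whether RPLP0 differs from its partners was not tested.

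RPL5 and RPL11 form a particle with 5S ribosomal RNA, and outside the ribosome they can bind MDM2, the inhibitor of p53. Both were called higher. RPL11 had 2106, 2101 and 2064 FPKM in the knockdown libraries, against 1892, 1879 and 1970 FPKM in the control libraries (log2 fold change 0.128, limma adjusted p = 0.0226). RPL5 averaged 987.5 ± 35.6 FPKM in knockdown cells and 897.3 ± 17.6 FPKM in control cells (log2 fold change 0.138, limma adjusted p = 0.0296). The RPL11 call held in 2 and the RPL5 call in 1 of the 6 fits with a library left out, with adjusted p up to 0.103.

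Another 9 large subunit genes were called higher. RPL3, near the peptidyl transferase centre, averaged 1071 ± 11.8 FPKM in knockdown cells and 988.7 ± 23.0 FPKM in control cells, and RPL4, which reaches into the tunnel, 1695 ± 29.2 FPKM in knockdown cells and 1571 ± 23.3 FPKM in control cells. Their log2 fold changes were 0.115 and 0.110. RPL34 had the largest fold change of the called large subunit genes, 0.193 on the log2 scale (SE 0.048). It had 1403, 1509 and 1342 FPKM in the knockdown libraries, against 1209, 1214 and 1296 FPKM in the control libraries, and knockdown library 2 stood highest. RPL27A (0.174) was also called, and so was RPL22 (0.136), an RNA-binding protein with roles outside the ribosome. RPL10, RPL23, RPL24 and RPL41, named here after their values were seen, had log2 fold changes between 0.124 and 0.135. The limma adjusted p of these 9 genes ran from 0.0266 to 0.0484, each held in at most 2 of 6 fits with a library left out, and the highest adjusted p among those fits was 0.148.

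RPL7 had the largest fold change of the large subunit, 0.217 on the log2 scale, but was not called (SE 0.081, limma adjusted p = 0.107). It had 353.1, 344.9 and 435.8 FPKM in knockdown libraries 1, 2 and 3, against 320.2, 322.1 and 327.5 FPKM in the control libraries. The groups did not overlap, and knockdown library 3 alone stood far above the others, in contrast to most of the class. Without that library RPL7 was called (limma adjusted p = 0.0365). At the other end, RPL15 had 561.7, 484.0 and 550.0 FPKM in the knockdown libraries and 558.1, 531.9 and 565.6 FPKM in the control libraries, with a log2 fold change of -0.056 (limma adjusted p = 0.541). With all 6 libraries RPL15 was the only large subunit gene with a negative value, apart from RPL37A after TPM scaling (-0.003). RPL37A, the most abundant of the large subunit, averaged 2655 ± 95.4 FPKM in knockdown cells and 2638 ± 57.7 FPKM in control cells (log2 fold change 0.009, limma adjusted p = 0.884).

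In the small subunit 7 of 31 genes rose, beside 6.54% of all genes tested. RPS9, a core protein that binds early to 18S ribosomal RNA and lies near the mRNA entry, had 713.0, 703.5 and 700.0 FPKM in knockdown libraries 1, 2 and 3, against 615.5, 626.4 and 669.2 FPKM in the control libraries. The knockdown libraries were close together and control library 3 was nearest to them. The log2 fold change was 0.148 (SE 0.035, limma adjusted p = 0.0270). RPS25, which some viral RNAs need to start translation from internal sites, had 642.2, 678.0 and 602.9 FPKM in the knockdown libraries, against 561.4, 558.1 and 582.8 FPKM in the control libraries (log2 fold change 0.174, limma adjusted p = 0.0341). RPS12 had 783.8, 818.3 and 708.6 FPKM in the knockdown libraries, against 662.8, 655.1 and 698.9 FPKM in the control libraries (log2 fold change 0.194, limma adjusted p = 0.0468). In RPS25 and RPS12 knockdown library 3 was the lowest of its group and only just above control library 3. RPS20 and RPS4X had log2 fold changes of 0.165 and 0.126 (limma adjusted p of 0.0359 and 0.0405). Each of these 5 calls held in at most 2 of the 6 fits with a library left out, and RPS4X in none, with adjusted p up to 0.142.

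RPS26 lies at the exit of the mRNA channel. It had the largest fold change of the called ribosomal protein genes, 0.238 on the log2 scale (SE 0.064, limma adjusted p = 0.0421), at 14.38, 13.93 and 12.82 FPKM in the knockdown libraries, against 11.31, 10.69 and 12.46 FPKM in the control libraries. This level is low for its class, and the table also gave its pseudogenes 8.647 FPKM in sum. The call was lost when their values were added, an alternative chosen after the data were seen, and it held only without knockdown library 3 or control library 3 among the fits with a library left out (adjusted p up to 0.129).

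RPS6, whose phosphorylation by S6 kinases is a common readout of mTORC1 activity, was just outside the threshold. Its level was 877.9 ± 40.5 FPKM in knockdown cells and 797.9 ± 21.5 FPKM in control cells (log2 fold change 0.137, limma adjusted p = 0.0510), and it was called under 6 of the other processing settings and without knockdown library 3. RPS24 and RPS27A, the second made as a fusion with ubiquitin, had log2 fold changes of 0.168 and 0.158 but wide knockdown spreads (limma adjusted p of 0.0843 and 0.0876). RPSA, also known as a precursor of the laminin receptor, had 0.081 (adjusted p = 0.113), RPS2 0.070 and RPS3 0.069. RPS19, needed for maturation of 18S ribosomal RNA, had 932.9, 935.5 and 858.5 FPKM in the knockdown libraries, against 862.5, 887.1 and 927.9 FPKM in the control libraries. These groups overlapped (log2 fold change 0.026, limma adjusted p = 0.721). RPS15 (-0.016, and 0.023 after the GC content and length correction) and RPS28 (-0.049) had slightly negative values that were not called.

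With all 6 libraries the subunits did not differ by more than the spread between libraries. The large subunit had 15 of 46 genes called higher and the small subunit 7 of 31, and none was called lower in either. Of all genes tested 6.54% were called higher and 10.2% lower. The median log2 fold change was 0.098 for the large and 0.099 for the small subunit, with pooled SDs between libraries of 0.042 and 0.045. The difference of these medians was -0.001, with a pooled SD between libraries of 0.004, and it was 0.011 without knockdown library 1. The knockdown median was 107.1% of control for the large subunit and 107.3% for the small one. Library by library the large subunit median minus the small one was -0.004, -0.006 and 0.003 in the knockdown, against 0.001, 0.004 and 0.000 in the control. Both subunits thus followed the same libraries up and down. A test over the genes was not made, since genes of a subunit are not replicates.

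**Figure D3:**
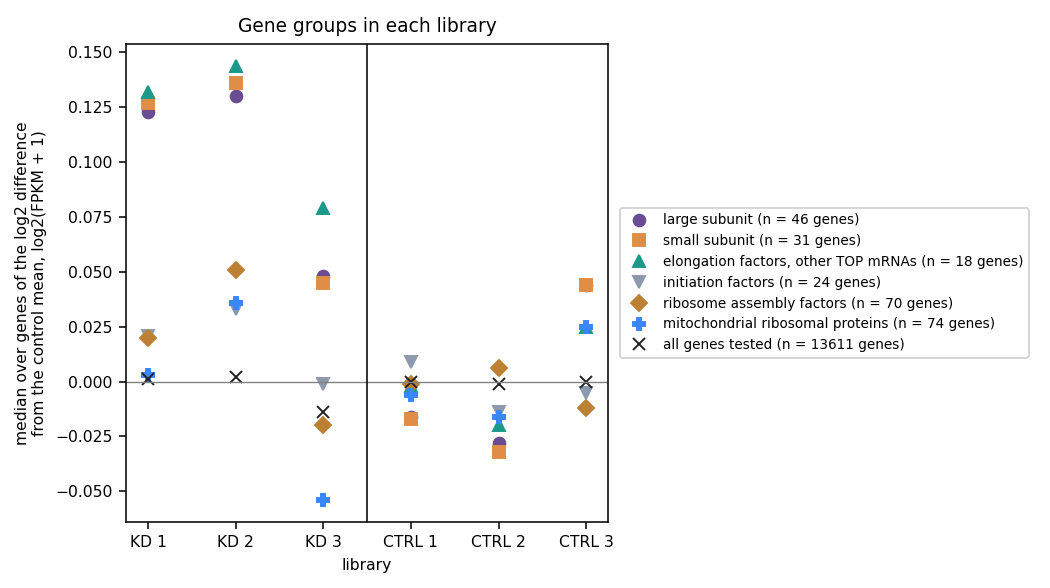
Median over the genes of each group of the log2 difference from the control mean, for each library (knockdown left of control). The large and small subunits nearly coincide in all 6 libraries (in control library 3 the small subunit symbol covers the large one), and they stand at 0.045 to 0.136 in the knockdown libraries and at -0.032 to 0.044 in the control libraries.

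Pseudogene rows hold part of the signal of some genes. Pseudogene rows were found by symbol (the gene's symbol, P and a number), so pseudogenes under other names were not counted. The table gave values above 0 to 143 such rows of 51 of the genes, and for 13 genes they summed to more than 10% of the gene's own level. RPL41 stood at 1760 FPKM while its pseudogene rows held 2458 FPKM. For RPL3, RPL13A and RPLP0 the pseudogene sums were 849.7, 650.6 and 405.3 FPKM. RPL14, at 401.4 FPKM over the 6 libraries, had 147.6 FPKM in its pseudogene row. The values of these 13 genes, 6 of them called, are therefore uncertain. With the pseudogene values added, 20 genes of the class were called and RPL41 and RPS26 were lost. In that fit 6.51% of all genes tested were called higher. RPS18 lies in the MHC region, where its primary row was listed at 0 and rows on alternate haplotype contigs held the signal, and it was taken from the highest of these.

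Genes outside the rule that also belong to the translation apparatus were set beside the class. Of all genes tested 6.54% rose and 10.2% fell. A list of other TOP mRNAs, which held elongation factors, initiation factors and others, rose in 9 of 18 and fell in none, with a median log2 fold change of 0.126. EEF1A1, which brings aminoacyl-tRNA to the ribosome, had 1832, 1908 and 1779 FPKM in knockdown libraries 1, 2 and 3, against 1612, 1560 and 1624 FPKM in the control libraries (log2 fold change 0.202, limma adjusted p = 0.00796). HNRNPA1 (0.188), the initiation factor EIF4B (0.156) and the histone chaperone NAP1L1 (0.224) rose too. For these 4 the calls held in all 6 fits with a library left out, and knockdown library 3 was above every control library. The count of 9 fell to 5 without knockdown library 1 or 2 or control library 1 or 2. It was 6 without control library 3 and 10 without knockdown library 3. The medians of this list were 0.132, 0.144 and 0.079 in the knockdown libraries and -0.002, -0.020 and 0.025 in the control libraries. FAU, made as a fusion with a ubiquitin-like protein, and RACK1 (listed as GNB2L1), a scaffold on the small subunit, had log2 fold changes of 0.121 and 0.060, and neither was called.

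Initiation factors outside that list, paralogs and mitochondrial ribosomal proteins had medians near that of all genes, of which 6.54% rose and 10.2% fell. Of 24 initiation factors 1 rose, EIF3B (0.126), and none fell, with a median of 0.010. The EIF3B call was lost without knockdown library 2 or 3 or control library 2 or 3 (limma adjusted p up to 0.0885). A further 6 initiation factors stood in the list of TOP mRNAs, and 3 of those rose, EIF4B, EIF3F (0.190) and EIF3E (0.171), of which EIF3F and EIF3E are named after their values were seen. The EIF3F call held in all 6 fits with a library left out and the EIF3E call in 1 (limma adjusted p up to 0.0876). The count for initiation factors thus depends on which list they are placed in. The ribosomal protein paralogs RPL22L1, RPL36AL, RPL26L1, RPS27L, RPL39L and RPL7L1 had log2 fold changes from 0.10 down to -0.037, and none was called. RPL10L was listed at 0 and RPL3L was below the filter. Ribosomal proteins of the mitochondria, encoded by a separate set of nuclear genes, rose in 2 (MRPL1 and MRPL32) and fell in 2 (MRPL3 and MRPS10) of 74, with a median of -0.011. Each of these 4 calls was lost without control library 3 among others, with limma adjusted p up to 0.112. Their library medians were 0.003, 0.036 and -0.054 in the knockdown and -0.006, -0.016 and 0.025 in the control, so the groups overlapped. The difference between these groups and the cytosolic class was not tested.

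Genes that make ribosomes formed further lists, whose counts stand beside 6.54% called higher and 10.2% called lower among all genes tested. Of 70 assembly and rRNA processing factors 7 rose and 3 fell, with a median log2 fold change of 0.014. With any 1 library left out, 1 to 6 were called higher and 0 to 1 lower. NOB1, the nuclease that makes the final cut of 18S ribosomal RNA, had 84.85, 84.14 and 81.24 FPKM in the knockdown libraries, against 72.90, 71.19 and 72.72 FPKM in the control libraries (log2 fold change 0.204, limma adjusted p = 0.00384). NOP56, a core protein of box C/D particles (0.105), and the helicase DDX10 (0.162) rose, calls lost in 5 and 6 of the 6 fits with a library left out (limma adjusted p up to 0.0845). TSR2, a chaperone that delivers RPS26, fell, with 22.18 ± 0.662 FPKM in knockdown cells and 25.31 ± 0.756 FPKM in control cells (log2 fold change -0.183, limma adjusted p = 0.0166, up to 0.0655 without knockdown library 1 or control library 1 or 3). Of 21 genes of RNA polymerase I transcription none was called higher and 1 lower by limma, with 7 at an unadjusted p below 0.05. Among all 13611 genes tested, 4472 had an unadjusted p below 0.05. The log2 fold change was positive for 16 of the 21, and the groups did not overlap for 8 that were higher and 1 that was lower in the knockdown. Of all genes tested 49.3% had a positive value, and 17.3% were higher and 20.9% lower without overlap. The median of the 21 was 0.074, and their library medians were 0.062, 0.10 and 0.053 in the knockdown and 0.011, 0.002 and 0.001 in the control, which do not overlap. After the GC content and length correction 4 of the 21 were called higher (8.9% of all genes tested), and 3 with a filter of 5 FPKM (9.02%). The gene called lower, RRN3, an initiation factor of the polymerase, averaged 19.05 ± 0.528 FPKM in knockdown cells and 21.84 ± 0.733 FPKM in control cells (limma adjusted p = 0.0164, up to 0.0545 without knockdown library 1 or control library 1). Of 25 genes of mTORC1 signalling and TOP mRNA control 2 rose and 4 fell (6.54% and 10.2% among all genes tested), with a median of 0.018. With any 1 library left out, 1 to 2 were called higher and 1 to 2 lower, and after the GC content and length correction 2 lower. TSC2, which restrains mTORC1, averaged 35.35 ± 1.41 FPKM in knockdown cells and 28.38 ± 0.288 FPKM in control cells (log2 fold change 0.306, limma adjusted p = 0.00204). RPTOR, a subunit of mTORC1, also rose (0.203), while DEPTOR, an inhibitor of mTOR (-0.462), and LARP1B, a relative of LARP1 (-0.358), fell. The DEPTOR call was lost without knockdown library 2, and the RPTOR call without knockdown library 2 or control library 2 or 3 (limma adjusted p up to 0.0628). RNA levels do not show mTORC1 activity, which was not measured.

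**Figure D4:**
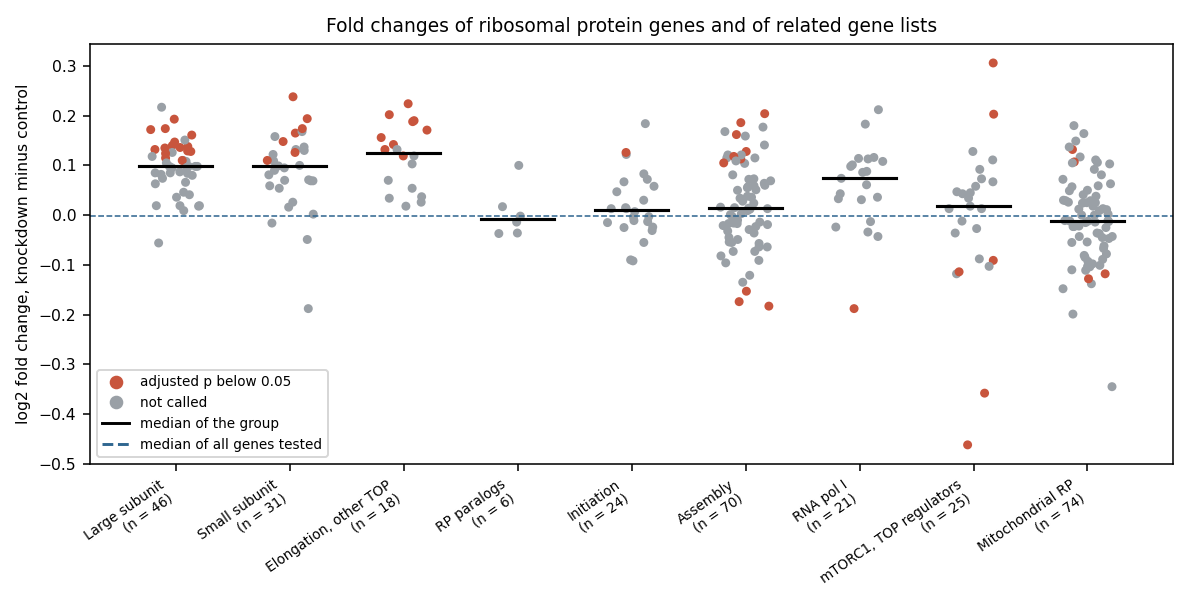
Log2 fold changes, knockdown minus control, of the tested genes in each group, with called genes in red, other genes in grey, the median of each group as a black bar and the median of all genes tested as a dashed line. Both subunits and the other TOP mRNAs lie mostly above 0, with medians of 0.098, 0.099 and 0.126, and the mitochondrial ribosomal proteins scatter around 0.

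The presence of a TOP tract at the listed start separated the genes little. The 46 with a tract had a median log2 fold change of 0.104 (0.009 to 0.194) and 14 were called, and the 16 without one had a median of 0.090 (-0.056 to 0.238) and 4 were called. All genes tested had a median of -0.002, and 6.54% of them were called higher. RPL28, RPL14 and RPLP0, shown above, carry tracts, and so do RPL37A and RPS19, whose levels hardly differed. Other letter runs were searched on both strands of the 300-base promoter windows. CCGGAA was present in 56.5% of the 62 genes and 20.1% of all, AAGATGGC in 9.68% and 3.52%, and TATAAA in 8.06% and 14.0%. CCGGAA read on the other strand is TTCCGG, which can share bases with the end of a tract, as in RPL34. These matches describe letters only.

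The fold changes within the class varied with base composition. Across the 75 genes with a transcript in the annotation, log2 fold change and GC content had a Spearman rho of -0.432, against -0.193 across 13150 tested genes. The 37 genes with higher GC had a median fold change of 0.074 and 9 calls, and the 38 with lower GC a median of 0.123 and 13 calls. On chromosome 19, whose 12 members had a median GC content of 58.0%, the median fold change was 0.056 and 3 were called. The class itself was not unusual in GC content (median 50.4%, against 49.3% for all tested) but short (median 683 bases, against 1652). After a smooth trend on GC content and length was removed from each library, rho across the class was -0.134, the median log2 fold change stayed 0.098 (0.011 for all tested), and 27 genes were called higher. Of the 22 called before, 21 were among them, RPL23 being lost. Of all genes tested 8.9% were called higher with this correction, against 6.54% without it. The correlations are across genes, which share libraries and are not independent, and they carry no test.

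**Figure D5:**
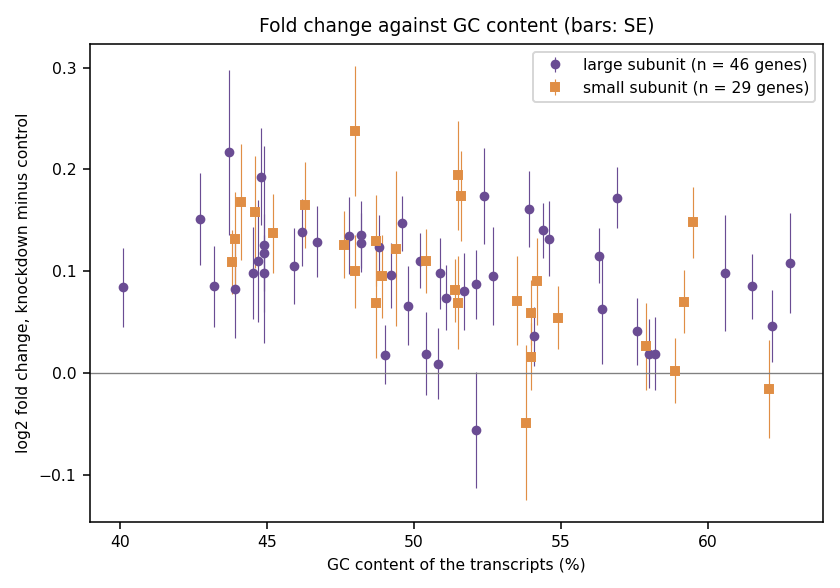
Log2 fold change, knockdown minus control (y axis, bars are SE), against the GC content of the transcripts in percent (x axis), for the 46 large and 29 small subunit genes with a value. The genes of lowest GC content lie between 0.082 and 0.217, and those of highest GC content include values near and below 0, such as -0.016 for RPS15.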

How the data were processed

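The deposited values are FPKM per Ensembl gene and library, which the authors made from paired reads of a stranded mRNA kit, per the labels' protocols. The submitters' processing notes name the hg19 build, Cuffdiff 2.2.0 and TopHat 1.4.1. The sources used here give neither the annotation release nor the strand setting, so reads of overlapping or antisense genes cannot be told apart. An exact 0 can be a failed estimate. Deposited starts count from 0 (31661 gene spans equal annotated lengths that way, 634 otherwise) and were raised by 1. Total depth is unknown, and relative depth was read from ratios of values below 0.3 FPKM.

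Values were transformed to log2(FPKM + 1), which understates changes of low genes, and fitted as knockdown minus control with limma 3.58.1 (R 4.3.3; two-sided moderated test, eBayes with trend), over 13611 genes with a mean of at least 1 FPKM, with Benjamini-Hochberg adjustment over all of them and a threshold of 0.05. The script was checked on simulated data. Groups come from the labels. Alternatives were another pseudocount (0.1), no filter, a filter of 5 FPKM, TPM scaling with and without the ribosomal protein genes, median-ratio scaling, a GC content and length correction (splines with 5 degrees of freedom, GENCODE v29 transcripts), no intensity trend, a replicate block, repeated rows summed and leaving out each library. Adding pseudogene values was chosen after the data were seen.

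The members and lists were chosen with earlier results of these data known, so lists are described by counts and medians without a test. Named members were the 10 per subunit with the smallest adjusted p, the 4 largest changes each way, the 4 highest and lowest levels per subunit, and genes with separate roles. From each list up to 4 called genes were named. Sequences are from RefSeq (GRCh38.p14). A few genes that this rule names are not reported here singly or drawn in the plots by gene name.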

Additional observations from a re-analysis of the deposited data

How the results depend on the processing

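Among the ribosomal protein genes, the count called higher was 22 as reported and lay between 20 and 29 under the GC content and length correction, the 3 other scalings, the filter of 5 FPKM, the pseudocount of 0.1, the summed repeated rows and the added pseudogene rows. It was 2 without the filter and 3 without the intensity trend. Of all genes tested 5.74% to 9.02% were called higher under the settings that gave 20 to 29. The share was 1.85% without the filter and 5.01% without the intensity trend. Leaving out 1 library gave 1 to 28 genes called higher and 0 to 1 called lower, and a difference between large and small subunit medians of -0.007 to 0.011, around the reported -0.001. Of all genes tested 2.96% to 6.24% were called higher in these fits. The class median stayed between 0.082 and 0.125 in these fits. No called gene that is named changed sign. Among named ribosomal protein genes of the class that were not called, 4 did. With 1 library left out, RPL15 (-0.056 as reported) ran from -0.096 to 0.011, RPS28 (-0.049) from -0.089 to 0.009, RPL37A (0.009) from -0.021 to 0.026 and RPS15 (-0.016) from -0.064 to 0.017. RPL37A was -0.003 after TPM scaling, and RPS15 was 0.023 after the GC content and length correction, alone or with the replicate block. Whether libraries of the same replicate number are paired across the groups was not settled. Deviations from the group means had correlations of -0.017, 0.062 and 0.070 for same-numbered libraries. For the other pairs they ran from -0.142 to 0.087, and with so few libraries these values cannot exclude pairing. With a replicate block 1 gene was called higher, or 8 with the block and the GC content and length correction together. Of all genes tested 3.61% were called higher with the block, and 5.69% with the block and that correction. The causes of these differences were not tested. Total depth is unknown, so no counting error could be given for single values, and the differences described here are close to the spread between 3 libraries.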

Other observations

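Outside translation, the genes whose log2 levels followed the mean of the ribosomal protein genes most closely over the 6 libraries included MDH1, malate dehydrogenase of the cytosol (Pearson r 0.990), PRKRA, an activator of the kinase PKR (0.990), DOCK5 (0.990) and TOMM20, a receptor of the mitochondrial import pore (0.988). SMCR7L had an r of 0.990. TOMM20 was also called (limma adjusted p = 0.0387). These values describe likeness over 6 libraries only, with no test.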
